A study of Mus musculus with 20 samples.

Results

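The 35 genes described here are cell cycle and proliferation genes: the factors that license and fire replication origins, the enzymes that supply and copy DNA, the cyclins with their kinase Cdk1, and the kinases, motors and chromosome proteins of mitosis. They were taken by name, by matching the Ensembl gene IDs of the count files to mouse symbols, and all 35 were found among the 55416 genes counted. They were counted in polyA RNA of lumbar dorsal root ganglia (L3 to L5), which hold the cell bodies of sensory neurons together with glia, vessels and resident immune cells. The animals were adult C57Bl6 mice of both sexes, sampled 1 month after tamoxifen. The icKO animals (AdvCreERT2; P12 Fl/Fl TAM) carried floxed Prdm12 alleles and an inducible Cre recombinase, and the controls (P12 Fl/Fl TAM) carried the same floxed alleles and also had tamoxifen. The 2 records of the Cre line differ: sample characteristics give AdvCreERT2, and the series' own text gives Rosa26CreERT2, a locus active in most cell types. Each animal gave 1 library labelled formalin, an irritant that causes inflammatory pain, and 1 labelled noninjected.

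For 4 of the 10 animals, titled control 1, control 4, icKO 2 and icKO 3, the sample title and the deposited name give opposite genotypes. Libraries are called by their titles below ("the library labelled control 1"), and they were grouped in 3 ways: by the deposited name, by the title, and by both over the 6 animals for which the records agree. Prdm12, the targeted gene, followed the deposited name. It averaged 21.2 ± 7.15 CPM in formalin libraries deposited as icKO and 96.2 ± 14.9 CPM in those deposited as control (SD, n = 4 and 5), with p = 0.00794 in an exact permutation test, two-sided. Here CPM are TMM-scaled CPM, a count relative to the size of its library. In noninjected libraries it averaged 26.2 ± 7.13 CPM in icKO and 85.4 ± 11.2 CPM in controls by deposited name (SD, n = 5 and 5), again with an exact permutation p of 0.00794. By title the groups overlapped, with exact permutation p = 0.444 for formalin and 0.254 for noninjected libraries. Unless another grouping is named, icKO and control below mean the genotype in the deposited name. Depth ran from 11763893 to 22392635 counts over 19 libraries. Only icKO 1 formalin, with 2829 counts of which 1 fell on a member, was left out for depth, so the formalin icKO group holds 4 libraries.

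A cell that divides first loads the MCM helicase onto replication origins with Cdc6 and Cdt1, then copies its DNA, and then enters mitosis under cyclin B and Cdk1. Transcription of these genes is periodic: E2F factors drive the group needed for DNA replication. The DREAM and MuvB complexes time the mitotic group through CHR elements, in promoters that often also hold CCAAT boxes. Mature sensory neurons have left the cell cycle, so in an adult ganglion these transcripts are known mainly from dividing glia, endothelium and immune cells, and in blood-forming tissue from erythroid and myeloid precursors.

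The promoters of 5 members are shown, since genes of these roles are known to be controlled through such shared elements. RefSeq promoter windows of 300 bases (250 before and 50 after the annotated start, build GRCm38.p6) were matched for 29 of the 35 members, with 30 windows in all. In each sequence, printed 5′ to 3′ on the gene's strand, capitals mark a match on either strand to the cell cycle homology region (TTTGAA or TTTAAA), the CCAAT box (CCAAT) or an E2F site (TTTGGCGC, TTTCGCGC, TTTCCCGC or TTTGCCGC).
Cdk1 (GRCm38.p6 chr10:69352863-69353162, minus strand): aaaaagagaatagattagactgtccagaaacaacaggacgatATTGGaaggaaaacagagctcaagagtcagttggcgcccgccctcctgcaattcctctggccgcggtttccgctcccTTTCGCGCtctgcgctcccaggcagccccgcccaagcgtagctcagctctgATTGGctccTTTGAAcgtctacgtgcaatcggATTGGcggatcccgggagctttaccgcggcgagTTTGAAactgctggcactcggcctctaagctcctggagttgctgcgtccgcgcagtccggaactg
Ccnb1 (GRCm38.p6 chr13:100786437-100786736, minus strand): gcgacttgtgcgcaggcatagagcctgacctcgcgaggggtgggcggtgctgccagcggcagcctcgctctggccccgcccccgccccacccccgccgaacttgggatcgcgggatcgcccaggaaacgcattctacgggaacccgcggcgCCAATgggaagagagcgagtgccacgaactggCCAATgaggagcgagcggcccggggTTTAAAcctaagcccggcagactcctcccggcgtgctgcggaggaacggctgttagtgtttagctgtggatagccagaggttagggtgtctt
Top2a (GRCm38.p6 chr11:99024140-99024439, minus strand): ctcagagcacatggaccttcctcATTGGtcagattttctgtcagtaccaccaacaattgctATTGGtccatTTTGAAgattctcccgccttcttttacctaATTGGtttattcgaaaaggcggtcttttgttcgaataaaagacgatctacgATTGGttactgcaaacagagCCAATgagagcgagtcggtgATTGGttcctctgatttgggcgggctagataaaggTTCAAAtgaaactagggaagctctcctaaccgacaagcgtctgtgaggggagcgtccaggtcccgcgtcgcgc
Mcm6 (GRCm38.p6 chr1:128359656-128359955, minus strand): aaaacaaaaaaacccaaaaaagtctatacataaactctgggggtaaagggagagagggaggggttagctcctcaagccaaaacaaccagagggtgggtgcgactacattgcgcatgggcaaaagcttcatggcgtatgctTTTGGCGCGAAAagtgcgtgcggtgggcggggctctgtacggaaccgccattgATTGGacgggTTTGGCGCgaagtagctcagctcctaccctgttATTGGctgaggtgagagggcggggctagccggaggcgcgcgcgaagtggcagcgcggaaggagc
Pcna (GRCm38.p6 chr2:132253131-132253430, minus strand): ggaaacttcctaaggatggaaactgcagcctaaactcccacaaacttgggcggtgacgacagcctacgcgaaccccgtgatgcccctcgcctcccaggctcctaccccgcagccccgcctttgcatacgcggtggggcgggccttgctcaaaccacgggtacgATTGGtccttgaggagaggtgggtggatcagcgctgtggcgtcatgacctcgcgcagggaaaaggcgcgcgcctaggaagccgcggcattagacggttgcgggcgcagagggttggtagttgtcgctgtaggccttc
The first 3 are genes of entry into and passage through mitosis. Cdk1 holds 2 matches to the homology region, 3 CCAAT boxes and 1 E2F site, Ccnb1 holds 1, 2 and 0, and Top2a holds 2, 6 and 0, in the same order. Mcm6, a subunit of the replicative helicase, holds 3 E2F matches, 2 of which share letters on opposite strands. Pcna, the sliding clamp of DNA polymerases, is shown as a member whose level varied little between libraries, and its window holds 1 CCAAT box and none of the other letters. Over the member windows, 63.3% held the homology region letters, against 27.6% of the 32851 promoter windows in the table. The CCAAT letters were in 80.0% of member windows and 37.4% of all windows, and the E2F letters in 23.3% and 2.26%. These are letter matches in a fixed window, not bound sites. The motif kinds did not overlap each other in the 5 windows shown.

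In the formalin libraries, 21 of the 35 members were higher in icKO than in control ganglia, where 3.05% of the 17671 genes tested were called higher, and 0 members were lower. All 35 members passed the filter on low counts. Their fitted folds were all positive, with a median log2 fold of 0.94 against 0.00 (to 2 decimals) over all genes tested. Calls here and below are at an adjusted p under 0.05 (Benjamini-Hochberg over all genes tested) in the quasi-likelihood test of edgeR, with sex as a covariate. For 15 members the icKO libraries did not overlap the controls from above, as held for 3.31% of all genes. In bulk tissue, more cells of a type and more RNA per cell cannot be told apart.

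The count of 21 rested on a few libraries and on the fit. Leaving out the animal titled control 3, control 5 or icKO 4 left 1 call each, leaving out icKO 3 left 3 and leaving out icKO 5 left 4. Calls over all genes fell in the same fits, to between 68 and 178 against 699, while the folds changed less: over these 5 fits Mki67 kept 1.73 to 2.05 (2.07 with all animals), Cdk1 1.61 to 1.77 (1.80) and Rrm1 0.52 to 0.60 (0.61). Leaving out control 1 gave 26 member calls among 1485 genes called in either direction. Without the library labelled icKO 5 formalin alone the count was 5 members among 205 genes called in either direction. Without the libraries labelled icKO 4 formalin and icKO 5 formalin it was 0, with folds of 1.32 for Mki67, 1.17 for Cdk1 and 0.39 for Rrm1 and 73 calls over all genes. In a fit of only the 2 formalin groups 0 members and 31 genes passed, with folds of 1.80, 1.57 and 0.55 for these 3 genes. DESeq2 called 25.

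**Figure D1:**
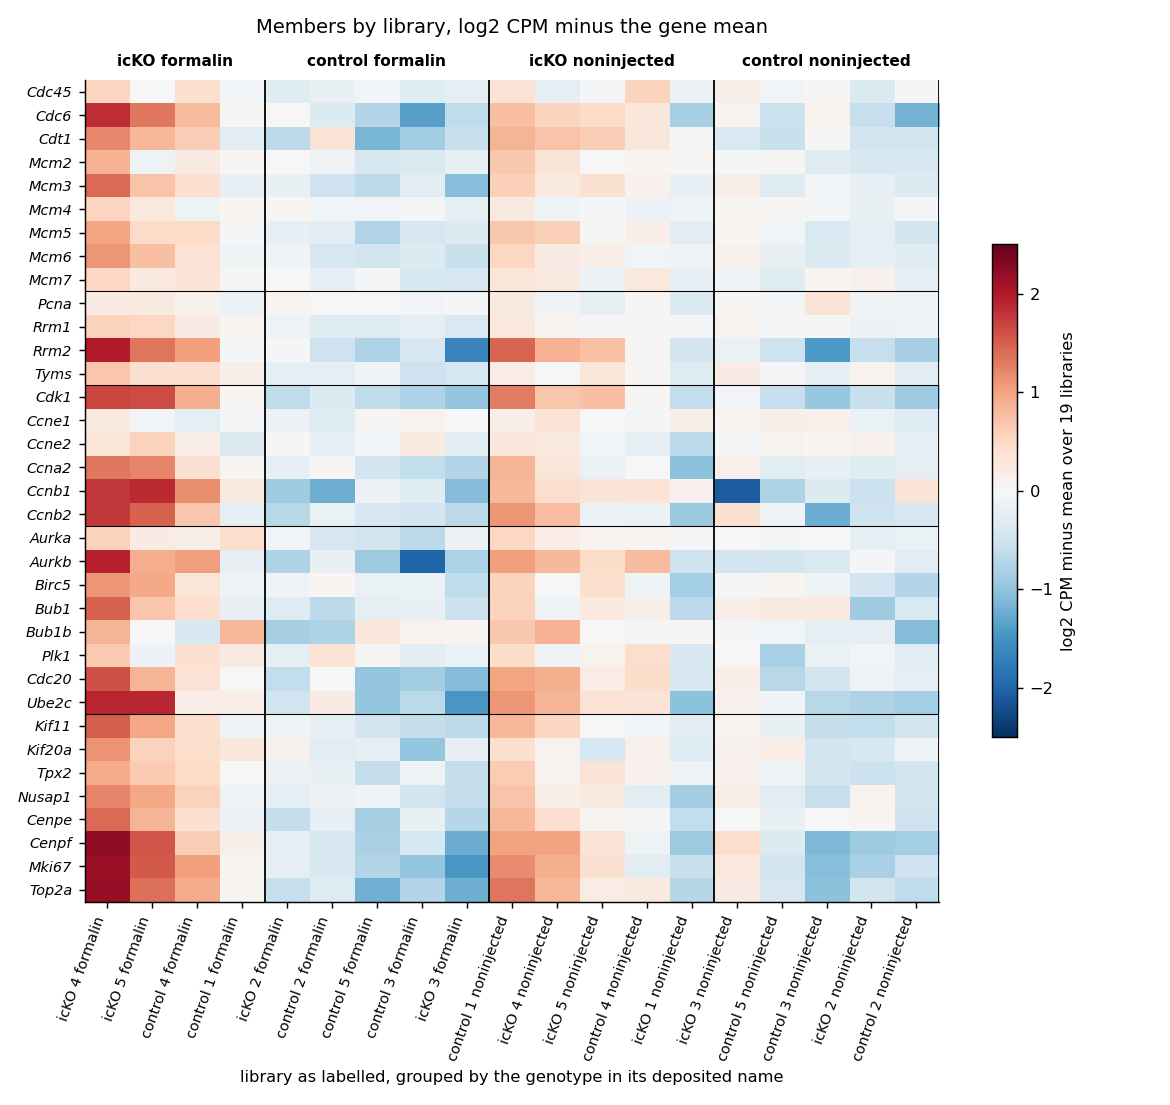
Each row is a member and each column a library, grouped by deposited-name genotype and agent, with color giving log2 CPM minus the gene's mean over 19 libraries. The libraries labelled icKO 4 formalin and icKO 5 formalin are the warmest columns, and the controls are mostly cool; Pcna, Ccne1 and Mcm4 are pale throughout.

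The members varied together from library to library. Summed over the 35 members, the formalin libraries held 586, 441, 347 and 271 CPM in those labelled icKO 4, icKO 5, control 4 and control 1, all deposited as icKO. The formalin controls held 237, 226, 213, 212 and 192 CPM in those labelled icKO 2, control 2, control 5, control 3 and icKO 3. The 2 groups did not overlap, and icKO spanned the wider range. They were also apart within each sex, with 586, 441 and 347 CPM in icKO males against 213 and 212 CPM in control males, and 271 CPM in the icKO female against 237, 226 and 192 CPM in control females. The noninjected icKO libraries held 412, 340, 285, 269 and 216 CPM in those labelled control 1, icKO 4, icKO 5, control 4 and icKO 1. The noninjected controls held 278, 242, 228, 221 and 211 CPM in those labelled icKO 3, control 5, control 3, icKO 2 and control 2, so that here the groups overlapped. The sum weights each member by its own count. The library labelled icKO 4 formalin was the highest of all 19 for 29 of the 35 members.

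Members differed in how far they moved. Between the lowest and the highest library, Ccnb1 spanned 15.4-fold, Aurkb 15.3-fold, Rrm2 12.6-fold, Mki67 12.1-fold, Cenpf 10.96-fold, Top2a 10.5-fold and Ube2c 10.3-fold. At the other end were Ccne1 at 1.58-fold, Pcna at 1.60-fold, Mcm4 at 1.72-fold and Cdc45 at 1.90-fold. Ccnb1 had 3 to 52 counts in a library and Aurkb 5 to 129, so that counting error weighs on their spans. Pcna had 254 to 587 counts.

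Origin licensing and helicase genes came first in the cycle and made up 9 members, of which 4 were higher in formalin icKO libraries (median log2 fold 0.89). They were Cdc6 (1.52, SE 0.38), which loads the helicase, and the helicase subunits Mcm3 (1.13, SE 0.26), Mcm5 and Mcm6. Mcm5 was at 16.6, 11.8, 11.7 and 8.28 CPM in the formalin libraries labelled icKO 4, control 4, icKO 5 and control 1 (icKO), against 7.30, 6.88, 6.60, 6.29 and 4.99 CPM in those labelled icKO 2, control 2, icKO 3, control 3 and control 5 (control). Every icKO library stood above every control (log2 fold 0.89, SE 0.21; adjusted p = 0.0277). Mcm6 was at 26.9, 21.0, 16.0 and 11.6 CPM in icKO, against 11.7, 9.83, 9.33, 9.12 and 8.54 CPM in control, with the lowest icKO library, control 1, just under the highest control, icKO 2 (log2 fold 0.94, SE 0.20; adjusted p = 0.0185). Cdt1, the partner of Cdc6, missed the threshold at 1.12 (SE 0.31; adjusted p = 0.0503). The folds of the other members of this role were 0.52 for Mcm2, 0.49 for Mcm7, 0.41 for Cdc45 and 0.26 for Mcm4.

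Among the 4 genes of DNA synthesis and nucleotide supply, 3 were higher (median log2 fold 0.65). Rrm1 and Rrm2 encode the subunits of ribonucleotide reductase, which makes deoxynucleotides, and both were higher. Rrm1 was at 38.2, 36.7, 29.7 and 26.9 CPM in the formalin libraries labelled icKO 4, icKO 5, control 4 and control 1 (icKO), and at 23.5, 22.0, 20.9, 20.6 and 19.7 CPM in those labelled icKO 2, control 3, control 2, control 5 and icKO 3 (control). It had the smallest p of the members, with a log2 fold of 0.61 (SE 0.10; adjusted p = 0.00431). Rrm2 was at 23.2, 14.9, 11.95 and 5.68 CPM in icKO libraries and 5.65, 4.40, 4.11, 3.46 and 1.84 CPM in control libraries, where the library labelled control 1 was within 0.1 CPM of the highest control, icKO 2 (1.80, SE 0.44; adjusted p = 0.0359). Tyms, thymidylate synthase, averaged 4.98 ± 0.80 CPM in icKO and 3.02 ± 0.36 CPM in control (SD, n = 4 and 5; log2 fold 0.69, SE 0.16). Pcna gave 30.6, 29.9, 27.9 and 23.7 CPM in icKO and 27.2, 25.8, 25.8, 25.6 and 24.7 CPM in control, which overlap (0.09, SE 0.11; adjusted p = 0.744).

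Of 5 cyclin genes and Cdk1, 3 were higher (median log2 fold 1.37). Cdk1, the kinase that starts mitosis, was at 8.87, 8.70, 5.22 and 2.91 CPM in the formalin libraries labelled icKO 4, icKO 5, control 4 and control 1 (icKO), against 2.21, 1.80, 1.80, 1.64 and 1.44 CPM in those labelled control 2, icKO 2, control 5, control 3 and icKO 3 (control). No control reached the lowest icKO library (1.80, SE 0.36; adjusted p = 0.0152). Ccnb1, the mitotic cyclin B1 that activates it, was at 2.71, 2.51, 1.65 and 0.88 CPM in icKO and 0.67, 0.60, 0.40, 0.35 and 0.32 CPM in control (1.88, SE 0.37; adjusted p = 0.0125). Ccna2, cyclin A2 of S phase and mitosis, averaged 12.1 ± 4.98 CPM in icKO and 5.22 ± 1.155 CPM in control (1.21, SE 0.32). The cyclin E genes of entry into S phase had folds near 0, of 0.01 (SE 0.12) for Ccne1 and 0.16 (SE 0.17) for Ccne2. Ccnb2 had a fold of 1.54 (SE 0.43; adjusted p = 0.0537), and its value is uncertain because its pseudogene Ccnb2-ps, with a median of 46 counts, could share its reads. The pseudogenes of Pcna, Ccnb1 and Tyms had 3 counts or fewer in every library.

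**Figure D2:**
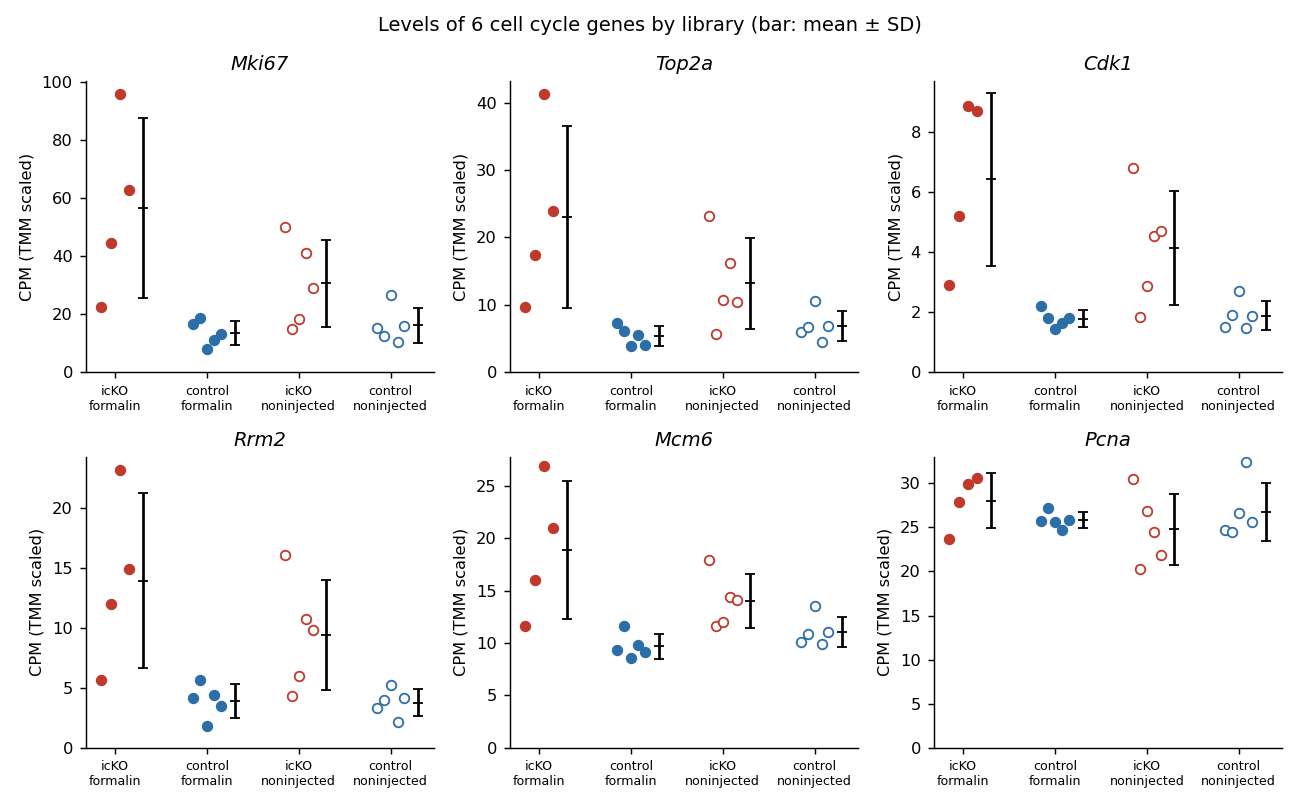
Points are libraries in TMM-scaled CPM (filled: formalin, open: noninjected), grouped by the deposited-name genotype, and bars give the mean ± SD. The formalin icKO libraries lie above all formalin controls for Mki67, Top2a, Cdk1 and Rrm2, and overlap them for Mcm6 and Pcna.

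Of the 8 mitotic kinases, checkpoint and degradation genes, 4 were higher in formalin icKO libraries (median log2 fold 0.82). Aurka, the centrosome kinase Aurora A, was at 8.77, 8.02, 6.77 and 6.60 CPM in the libraries labelled icKO 4, control 1, icKO 5 and control 4 (icKO), against 5.65, 5.36, 4.43, 4.33 and 3.71 CPM in icKO 2, icKO 3, control 2, control 5 and control 3 (control). These groups were apart, and the difference was small (0.73, SE 0.14; adjusted p = 0.0135). Aurkb, the Aurora B kinase of the chromosomal passenger complex, had a larger fold of 1.83 (SE 0.39), Cdc20, an activator of the anaphase-promoting complex, 1.5 (SE 0.35), and its ubiquitin-conjugating enzyme Ube2c 1.75 (SE 0.47). The polo kinase Plk1 did not pass at 0.38 (SE 0.22). Neither did the spindle checkpoint genes Bub1 at 0.91 (SE 0.29) and Bub1b at 0.56 (SE 0.31), nor the passenger protein survivin, Birc5, at 0.71 (SE 0.26).

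Spindle, kinetochore and chromosome genes had 7 of 8 members higher (median log2 fold 1.18). Mki67, which coats mitotic chromosomes and encodes the antigen Ki-67, was at 96.0, 62.9, 44.6 and 22.6 CPM in the formalin libraries labelled icKO 4, icKO 5, control 4 and control 1 (icKO), against 18.7, 16.6, 13.2, 11.1 and 7.94 CPM in icKO 2, control 2, control 5, control 3 and icKO 3 (control). The highest control was below the lowest icKO library (2.07, SE 0.47; adjusted p = 0.0273). Top2a, the topoisomerase that untangles sister chromatids, was at 41.3, 23.9, 17.3 and 9.65 CPM in icKO and 7.35, 6.10, 5.52, 4.00 and 3.92 CPM in control (2.12, SE 0.45; adjusted p = 0.023). It had the largest fitted fold of the members. Cenpf and Cenpe, kinetochore proteins, had folds of 1.86 (SE 0.47) and 1.16 (SE 0.30). The spindle motors Kif11 (1.19, SE 0.30) and Kif20a (0.92, SE 0.235) and the spindle assembly factor Tpx2 (0.85, SE 0.20) were also higher, and Nusap1, which bundles microtubules, missed the threshold at 1.02 (SE 0.29; adjusted p = 0.0523).

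**Figure D3:**
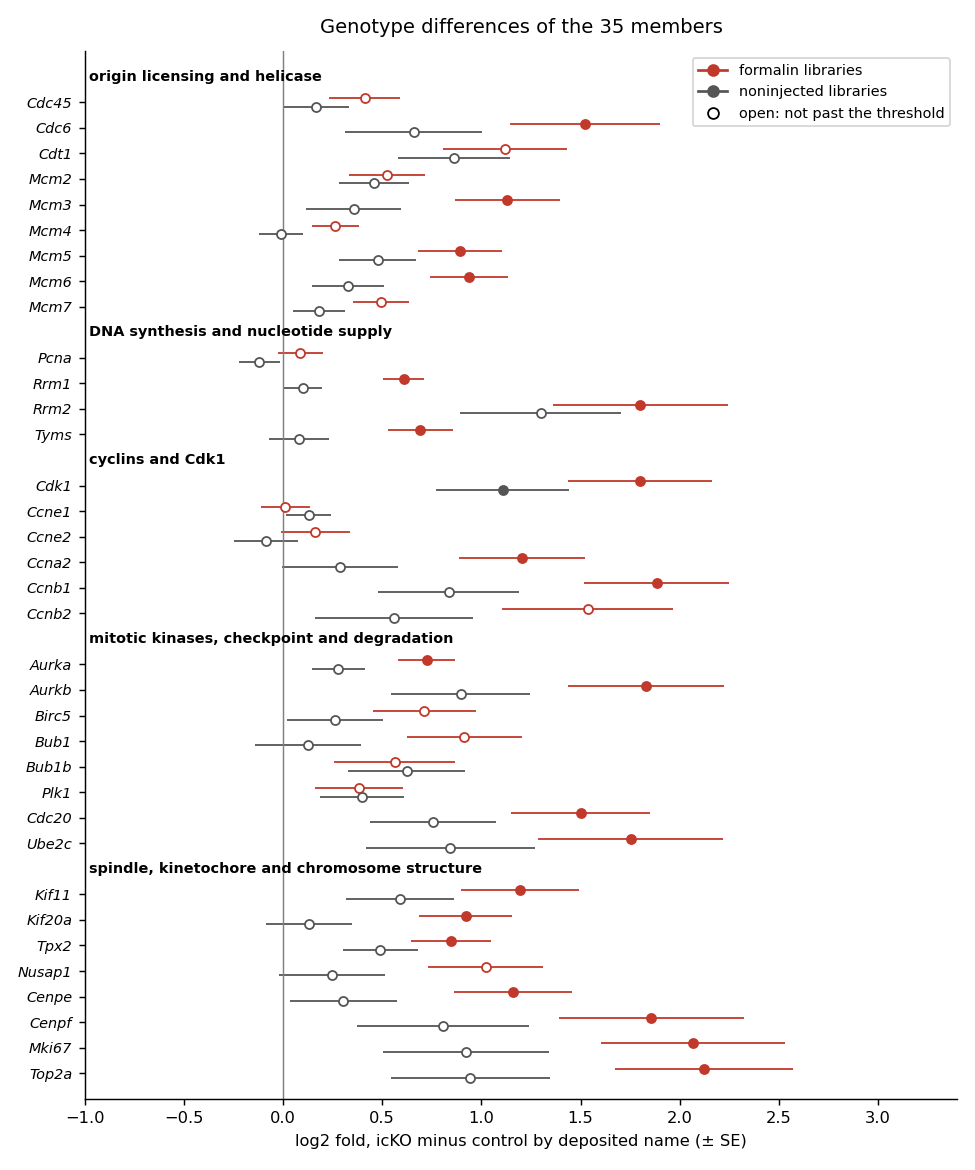
Points are fitted log2 folds, icKO minus control by deposited name, with bars of 1 SE, for formalin (red) and noninjected (grey) libraries, ordered by role. Filled points passed the threshold: 21 of the formalin folds and 1 of the noninjected folds, that of Cdk1.

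Without injection, 1 of the 35 members was higher in icKO, Cdk1, where 5.86% of genes were called higher. It was at 6.80, 4.69, 4.53, 2.86 and 1.83 CPM in the noninjected libraries labelled control 1, icKO 5, icKO 4, control 4 and icKO 1 (icKO), against 2.69, 1.91, 1.87, 1.498 and 1.46 CPM in those labelled icKO 3, icKO 2, control 5, control 2 and control 3 (control). The groups overlapped (log2 fold 1.11, SE 0.33; adjusted p = 0.0449). DESeq2 called 3 members, given without its count over all genes, so they cannot be set against a share. Leaving out an animal gave 0 to 2 member calls, with 0 in 8 of the 10 fits, and 348 to 2129 calls over all genes. The noninjected fold of Cdk1 itself lost its call in the same 8 fits. Folds were positive for 32 of 35 members (median 0.40), and 13 had an unadjusted p under 0.05. Mki67 averaged 30.6 ± 14.9 CPM in icKO and 16.1 ± 6.19 CPM in control (SD, n = 5 and 5; 0.92, SE 0.42; adjusted p = 0.171). Pcna had a fold of -0.12 (SE 0.10), Ccne2 -0.09 (SE 0.16) and Mcm4 -0.01 (SE 0.11). Bub1b was the only member whose noninjected icKO libraries all lay above the controls, which held for 4.79% of all genes (0.62, SE 0.29; adjusted p = 0.186).

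The fitted genotype difference was larger with formalin for 32 of the 35 members (median difference of the log2 folds 0.61), but no member passed the test of that difference, for which 0% of 17671 genes were called. The smallest adjusted p of a member was 0.108, for Rrm1 (0.51, SE 0.14), again in edgeR, in a fit with no term for the animal that both libraries come from. An unadjusted p under 0.05 was reached by 8 members and 4195 genes, and DESeq2 called 793 genes, 1 of them a member. Without the animal titled control 1, the count was 1762 genes and 9 members. The formalin and noninjected contrasts do not hold the same icKO animals. The animal titled icKO 1, whose formalin library was left out for depth, is in the noninjected group only. Its member sum of 216 CPM was the lowest of the noninjected icKO libraries. How much of the larger fitted difference with formalin comes from its absence there was not tested. Formalin over noninjected, pooled over genotypes, called 0% of genes, with 0 members at an unadjusted p under 0.05, 861 genes at that level and 4 genes called by DESeq2, none a member. The median log2 fold of the members was 0.10, and Birc5 had the smallest p (0.27, SE 0.17; adjusted p = 0.848). With the animal as a replicate block the paired count was again 0.

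In the 6 animals whose records agree, 26 members were higher in formalin icKO libraries, where 6.33% of 17669 genes were called higher, with a median log2 fold of 1.31. This sets the 2 libraries labelled icKO 4 and icKO 5 against 3 controls, the 2 formalin libraries with the highest member sums. Leaving out control 5 left 3 member calls among 139 genes called in either direction. Leaving out control 3 left 6 member calls, given without the count over all genes, so they cannot be set against a share. Of the 21 calls by deposited name all but Tyms were made here too, and 6 members were added: Bub1 (1.30, SE 0.29), Nusap1 (1.23, SE 0.25), Cdt1 (1.499, SE 0.41), Ccnb2 (1.88, SE 0.40), Birc5 (0.95, SE 0.26) and Mcm4 (0.45, SE 0.12). Without injection 2 members were higher, Rrm2 (1.32, SE 0.32) and Cdk1 (1.17, SE 0.29), where 3.83% of genes were called. Leaving out an animal gave 0 to 3 member calls, and 21 to 2046 calls over all genes in either direction. Grouped by title, 0 members differed in either agent, as did 0% of 17671 genes in each. In that grouping an unadjusted p under 0.05 was reached by 3 members and 2222 genes with formalin, and 1 member and 1538 genes without, and DESeq2 called 16 genes and 1 gene, none of them members.

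Other genes of the cell cycle differed by class. Of 35 further mitosis genes, 15 were higher in formalin icKO libraries (median log2 fold 1.02), among them the kinetochore scaffold Knl1 (2.46, SE 0.44), Cdca3 (1.35, SE 0.30), the spindle protein Tacc3 (0.67, SE 0.15) and Ect2, needed for cytokinesis (1.02, SE 0.23). Of 19 replication fork genes 1 was higher, Uhrf1, which keeps DNA methylation at the fork (1.92, SE 0.39), with a list median of 0.34. Of 13 E2F, Rb and MuvB transcription factor genes tested, 3 were higher, E2f2 (1.48, SE 0.33), Foxm1 (1.09, SE 0.27), an activator of mitotic genes, and E2f8 (1.85, SE 0.51), and the list median was 0.16. Of 7 CDK inhibitor genes Cdkn2c was higher (0.83, SE 0.19), with a median of 0.16. Of 6 G1 cyclin and kinase genes 3 were higher, Ccnd3 (0.66, SE 0.16), Cdk2 (0.78, SE 0.21) and Cdk4 (1.25, SE 0.08). No gene of these lists was lower.

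Without injection these lists held 2 calls. Lig1, the DNA ligase of the replication fork, was higher at 0.50 (SE 0.13; adjusted p = 0.0245), and so was Cdk4 at 1.13 (SE 0.07; adjusted p = 1.7e-08). Cdk4, the kinase partner of the D cyclins, averaged 115 ± 6.01 CPM in formalin icKO and 48.5 ± 3.56 CPM in formalin control libraries (SD, n = 4 and 5), and 110.0 ± 9.13 and 50.6 ± 4.03 CPM in the noninjected pair (SD, n = 5 and 5). Its gene lies a few genes from that of Avil, advillin, in the RefSeq gene order, and its genotype groups did not overlap under either agent. The genes with the smallest noninjected p in the other lists were Spc24 (0.65, SE 0.22) and Pttg1 (-0.26, SE 0.09) in mitosis, E2f2 (0.72, SE 0.30) and E2f8 (1.01, SE 0.46) among transcription factors, and Cdkn2b (-0.57, SE 0.31) and Cdkn2d (0.11, SE 0.07) among inhibitors, none past the threshold.

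Erythroid genes varied with the members from library to library under both agents, and the other blood lists to differing extents. Of 12 erythroid genes 11 were higher in formalin icKO libraries (median log2 fold 2.18), as were 4 of 10 neutrophil precursor granule genes (2.10), 2 of 8 mature neutrophil genes (2.12), 5 of 8 early B lineage genes tested (1.79) and 2 of 6 blood progenitor genes, Cd34 and Myb (0.53). No T and NK gene (8 tested, 1.00) and no megakaryocyte and platelet gene (6, 1.00) passed. Without injection Kit was the only gene of these lists to pass (0.43, SE 0.11), and the medians were 1.05 for erythroid and 1.10 for neutrophil precursor genes. All 12 erythroid and all 10 neutrophil precursor genes had counts in each of the 19 libraries. The beta globin Hbb-bs ran from 67.4 CPM (icKO 3) to 926 CPM (icKO 5) in formalin libraries and from 65.8 (control 2) to 400 CPM (icKO 5) in noninjected libraries, and the alpha globin Hba-a1 from 18.8 to 238 and from 17.6 to 115 CPM over the same pairs of libraries. The neutrophil granule gene Ngp ran from 33.3 CPM (icKO 3) to 581 CPM (icKO 4) with formalin and from 38.4 (control 3) to 230 CPM (icKO 4) without, and lactoferrin, Ltf, from 24.8 to 519 and from 25.8 to 197 CPM over the same pairs.

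The ranges of the other blood lists differed. In formalin libraries S100a9 ran from 61.0 to 1097 CPM and S100a8 from 36.4 to 729 CPM, both lowest in icKO 3 and highest in icKO 4. Cd79b of B cells ran from 1.29 to 11.2 CPM, Lck of T cells from 1.93 to 6.04, Nkg7 from 0.53 to 3.91, Pf4 of platelets from 7.26 to 38.9 and Itga2b from 7.05 to 19.7 CPM. Ebf1, which gave most of the early B sum, stayed between 146 and 171 CPM in those libraries, and Kit and Cd34, which gave most of the progenitor sum, between 82.1 and 119 and between 63.4 and 120 CPM. Kit, Cd34 and Ebf1 are also known in cells other than blood precursors.

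**Figure D4:**
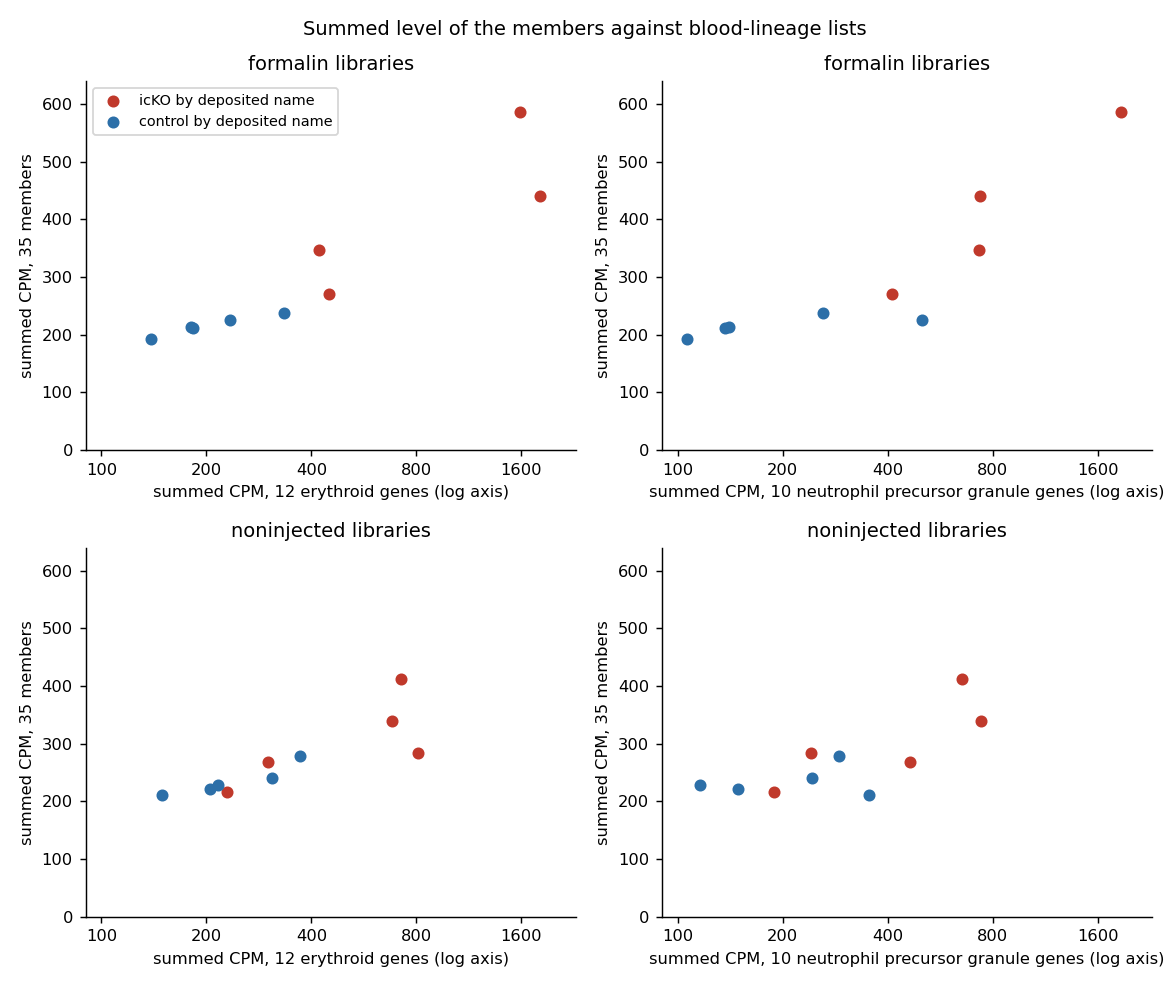
Each point is a library, with the summed CPM of the 35 members against that of 12 erythroid genes (left) or 10 neutrophil precursor granule genes (right) on log horizontal axes, for formalin (top) and noninjected (bottom) libraries. The member sum climbs with both blood sums among the formalin libraries; among noninjected ones the erythroid order is the closer.

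Across the 9 formalin libraries, the member sum had Pearson's r of 0.91 and Spearman's rho of 0.95 with the erythroid sum, and 0.95 and 0.95 with the neutrophil precursor sum. Without the libraries labelled icKO 4 and icKO 5 these r were 0.85 and 0.88. Over the 10 noninjected libraries r was 0.82 and rho 0.92 with the erythroid sum (r 0.97 without control 1 and icKO 5), and r was 0.82 and rho 0.58 with the neutrophil precursor sum (r 0.39 without control 1 and icKO 4, so it rests on them). These are descriptions among 51 relations over 17 lists, with no test, over points that share the scaling of 1 library each and the genotype, and each group by genotype and agent holds fewer than 6 libraries. Within the formalin controls the erythroid order was close to that of the members. The library labelled icKO 2 was highest in members (237 CPM) and erythroid genes (335 CPM), and icKO 3 lowest in both (192 and 139 CPM). In neutrophil precursor genes control 2 was the highest control (503.5 CPM), with 260.3 CPM in icKO 2. Within the formalin icKO libraries icKO 4 was highest in members but icKO 5 in erythroid genes (1583 and 1813 CPM). There control 4 stood above control 1 in members (347 and 271 CPM) and below it in erythroid genes (421 and 449 CPM). By member, rho with the erythroid sum in formalin libraries had a median of 0.83, from -0.12 (Ccne1) to 0.97 (Cenpf), with 34 of 35 positive, against a median of -0.02 over the 17671 genes tested, 3.99% of which exceeded the median of the members. With the neutrophil precursor sum the median was 0.87, and 3.4% of genes exceeded it. The other blood lists varied in how they followed the members. Mature neutrophil genes had r of 0.98 in formalin and 0.85 in noninjected libraries, the second 0.48 without control 1 and icKO 4. T and NK genes had r of 0.71 and 0.10, and early B genes 0.83 and 0.54. Megakaryocyte genes had 0.91 and 0.66, the second -0.10 without control 1 and control 4, and progenitor genes 0.87 and 0.45. By member, in noninjected libraries the medians of rho with the erythroid and neutrophil precursor sums were 0.66 and 0.60, and Pcna was the lowest member in both (-0.07 and 0.10).

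Each animal could also be set against itself, so that its genotype is the same on both sides of the ratio. The r and rho over the 9 animals still span both genotypes, so genotype is not removed from them. The log2 ratio of formalin over noninjected was 0.79 for the members and 1.22 for the erythroid sum in icKO 4, 0.63 and 1.17 in icKO 5, 0.37 and 0.49 in control 4, and 0.10 and 0.65 in control 2. It was 0.10 and 0.71 in icKO 2, -0.10 and -0.23 in control 3, -0.18 and -0.78 in control 5, -0.53 and -1.42 in icKO 3, and -0.605 and -0.69 in control 1. Members and erythroid genes had the same sign in 9 of 9 animals (r 0.92, rho 0.90), and members and neutrophil precursor genes in 8 of 9 (r 0.92, rho 0.92), control 3 being the exception. Mature neutrophil genes had r of 0.92 and the same sign in 8 animals, T and NK genes 0.71 and 7, megakaryocyte genes 0.65 and 5, progenitor genes 0.24 and 4, and early B genes 0.12 and 5. The progenitor sum came mostly from Kit and Cd34 and the early B sum from Ebf1, so their r describe mainly these genes. In icKO 3, which is deposited as control, and control 1, deposited as icKO, members and erythroid genes both fell by at least 0.53 on the log2 scale. Formalin libraries were the higher ones in 5 animals and the lower ones in 4.

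**Figure D5:**
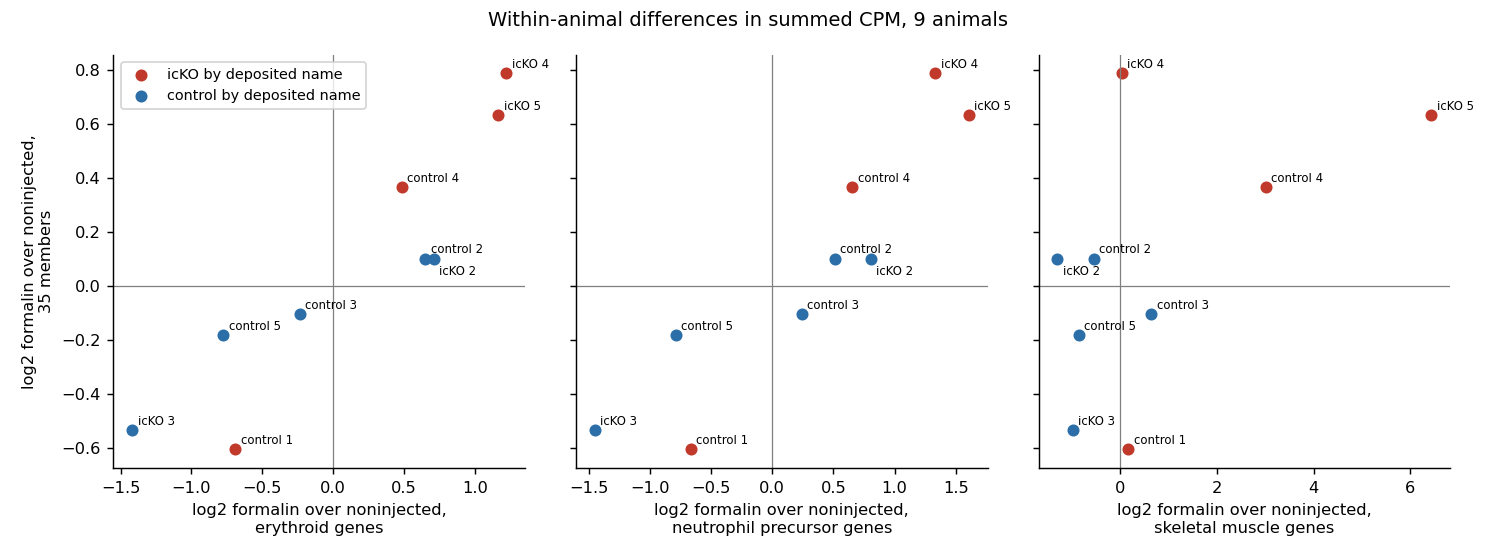
Each point is an animal, with the log2 ratio of formalin over noninjected in the summed CPM of the members against that of erythroid (left), neutrophil precursor (middle) and skeletal muscle genes (right). The 9 points lie in the lower left and upper right corners for erythroid genes, and skeletal muscle shows no such order.

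Some other tissue lists also followed the members. Across the formalin libraries rho was 0.82 (r 0.59) for fibroblast and 0.80 (r 0.68) for endothelium genes. It was 0.68 for adipocyte, 0.67 for Schwann cell, 0.63 for skeletal muscle and 0.45 for macrophage genes. Cartilage and bone genes had 0.42 and sensory neuron genes -0.55. Satellite glia genes had rho of 0.15 and r of -0.41, or r of 0.89 without icKO 2 and icKO 4. Across the noninjected libraries rho was -0.14, 0.28 and -0.59 for fibroblast, endothelium and satellite glia genes (r -0.35, -0.05 and -0.44). There it was -0.10 for adipocyte, -0.45 for Schwann cell and 0.05 for skeletal muscle genes. Skeletal muscle genes had a median log2 fold of 4.46 in formalin icKO libraries, with 3 of 8 past the threshold, and their summed level was 1955 CPM in the library labelled icKO 5 formalin and 323 CPM in control 4 formalin, against at most 41.9 CPM in every other library. The library labelled icKO 4 formalin, the highest in the members, had 32.7 CPM. Within animals, r between members and muscle was 0.53 and 0.09 without control 4 and icKO 5. Fibroblast, macrophage and Schwann cell sums had r of 0.75, 0.66 and 0.63 within animals, with the same sign as the members in 6, 8 and 6 of 9, and sensory neuron genes had -0.67. The fibroblast r was 0.35 without icKO 4 and icKO 5. By genotype in formalin libraries the medians were 0.80 for fibroblast, 0.43 for macrophage, 0.185 for Schwann cell, -0.02 for satellite glia and -0.14 for sensory neuron genes, with 0 genes of these 5 lists past the threshold. The medians were 0.365 for endothelium, 2.30 for adipocyte and 0.21 for cartilage and bone genes, again with 0 calls. Without injection 1 sensory neuron gene was higher, and 1 Schwann cell gene and 2 satellite glia genes were lower. All 8 sensory neuron markers had counts in every library. The part of blood-lineage cells, muscle or other tissue in the genotype difference of the members was not tested.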

How the data were processed

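Per the submitters' processing notes, the authors aligned reads to GRCm39 with STAR (version 2.7.8a) and counted them with featureCounts (version 2.0.1), and per the labels' protocols the polyA libraries were unstranded; the deposited values are raw counts per gene. Of 55416 Ensembl IDs, 52083 were named from reference tables of build GRCm38.p6, also the build of the promoters. The library labelled icKO 1 formalin was left out. Counts were fitted with edgeR 4.0.16 in R 4.3.3 (TMM, filterByExpr, robust quasi-likelihood test, group and sex), with Benjamini-Hochberg adjustment over all genes and a threshold of 0.05. SE is the log2 fold over the square root of F. The fit was run on simulated counts with known folds. These had 1 dispersion for all genes and no link between the libraries of an animal. They therefore do not test the fit under the spread and pairing of these data. Alternatives were DESeq2 1.42.0, RLE scaling, no low-count filter, no sex term, only the 2 groups compared, replicate blocks and leaving out animals. Leaving out the library labelled icKO 5 formalin, alone or with icKO 4 formalin, was chosen after seeing the data. The members, lists and tests were chosen with earlier results of these data known. Full values were given for 7 preset members and the 3 others with the smallest formalin p. Up to 4 called genes, or the 2 with the smallest p, were named per pathway list, and the 2 most abundant per blood list. Other named genes were chosen after their values were seen. Both libraries of an animal carry its number in the deposited names, and their deviations from the group means correlated by -0.034 to 0.432 (9 pairs, 8 over 0.1). Over 36 replicate pairs, 0 were identical and chi-square per degree of freedom was at least 7.08. Each genotype contrast within an agent takes 1 library per animal. The main fit estimates the spread from all its libraries, with no term for the animal. Its p-values therefore treat the 2 libraries of an animal as independent, also in the pooled and difference contrasts.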

Additional observations from a re-analysis of the deposited data

Results flagged for a closer look

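In 9 of 88 group values tested, 1 library stood far from the rest of its group. Chance alone gives such a gap in about 5% of groups when values are independent. These values are not, since the same libraries recur and the sum contains the members. The 9 of 88 therefore cannot be set against that rate. Among libraries titled control and noninjected, the library labelled control 1 stood apart from the other 4 in the member sum (412.4 CPM), Mki67 (49.88 CPM), Cdk1 (6.797 CPM), Rrm2 (16.07 CPM), Rrm1 (30.67 CPM), Aurka (8.426 CPM) and Mcm6 (17.98 CPM). Among libraries titled control and formalin, the library labelled control 4 stood apart in Rrm2 (11.95 CPM). Both are deposited as icKO, and neither stood apart in the groups by deposited name. Among noninjected controls by deposited name, the library labelled control 3 stood apart in Pcna (32.41 CPM).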

How the results depend on the processing

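Counts are of genes called in either direction or of members called higher, and icKO is set against control. By deposited name they were 1658 genes and 1 member in noninjected libraries and 699 genes and 21 members in formalin libraries. With agreeing animals they were 831 and 2, and 1615 and 26. DESeq2 gave 3 members noninjected and 1226 genes formalin by deposited name, 4 genes for pooled formalin, 793 genes and 1 member for the difference of contrasts, 1514 genes for agreeing noninjected animals, and 1 and 16 genes by title. Without a low-count filter there were 13 members noninjected and 2129 genes formalin by deposited name, 210 genes and 1 member for pooled formalin, and 2519 genes and 10 members for the difference. With agreeing animals that setting gave 2033 genes and 6 members noninjected and 3170 genes formalin, and by title 490 genes noninjected and 1274 genes and 12 members formalin. Without the sex term there were 1104 and 1052 genes by deposited name and 1 for pooled formalin. With only the 2 groups compared there were 3 members noninjected and 31 genes and 0 members formalin by deposited name, and 1535 and 1035 genes with agreeing animals. Without the library labelled icKO 5 formalin there were 205 genes and 5 members formalin by deposited name, and 2128 and 1024 genes with agreeing animals. Without icKO 4 and icKO 5 formalin there were 2596 genes and 7 members noninjected, 73 genes and 0 members formalin, and the formalin fold of Pcna turned to -0.0299. Where a count of members stands alone, as for the noninjected fits, the count over all genes is not given here. Such member counts, among them the 13 without a filter, therefore have no share of all genes beside them. The cause of the changes with setting was not tested.

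Leaving out each animal gave, by deposited name, 348 to 2129 genes and 0 to 2 members noninjected, 68 to 1485 genes and 1 to 26 members formalin, 0 to 1762 genes and 0 to 9 members for the difference, and 0 for pooled formalin. With agreeing animals it gave 21 to 2046 genes and 0 to 3 members noninjected and 139 to 3360 genes and 3 to 26 members formalin. By title it gave 0 noninjected and 0 to 1 genes formalin. With the animal as a replicate block, pooled formalin gave 0 calls. Title numbers did not pair samples (correlations -0.242 to 0.388 formalin, -0.01 to 0.205 noninjected), and that block gave 0 calls by title. For the 10 members with full values, pairs of a member and an alternative were counted in the formalin contrast by deposited name. The 9 members with a call lost it in 61 such pairs and kept their direction in all that were run. In 108 pairs of the 10 members the call and direction stayed the same. Pcna, which had no call, turned in sign in 1. Counts of 3 to 52 for Ccnb1 limit its precision.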
